A study of Mus musculus with 16 samples.

Results

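Secreted proteins of the matricellular and injury-matrix group were followed at the RNA level: periostin (Postn), the CCN proteins Ctgf and Cyr61, tenascin C (Tnc), thrombospondin 1 (Thbs1), Sparc, fibronectin (Fn1), fibrillin 1 (Fbn1) and elastin (Eln). The 9 genes were taken as a fixed list of symbols from the 17737 genes listed, and all 9 passed the filter on low counts that left 13381 genes for testing. They were measured by bulk RNA sequencing in ventricles of 16 male C57BL/6 mice, 4 animals on each of 4 diets. With all 16 libraries, no member passed an adjusted p of 0.05 in any comparison between diets by edgeR's quasi-likelihood test. Eln, Sparc, Cyr61 and Ctgf passed in single comparisons with other weights or fewer libraries, as given below. The members nevertheless differed widely from animal to animal. Sparc followed endothelial markers from library to library, and Fn1 and Fbn1 had their highest and lowest levels in the same pair of libraries. Ctgf was higher in every UW library than in any chow library, as were 1.97% of all tested genes.

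Mice entered the study at 6 weeks of age, were assigned to a diet at random and ate it for 6 months. Chow was the rodent diet Prolab IsoPro RMH 3000 5P75. NIA was the primate diet 5L1F, UW was the primate diet Envigo TD.85387, and mNIA was the NIA formula altered so that its sucrose and fat match UW. The labels name no transgene or deleted gene in any group. Each library is the lower portion of the ventricles of a single animal, so it holds muscle together with vessels and connective tissue. In such bulk tissue, fewer cells of a type and less RNA per cell cannot be told apart. The diet names are those of the sample titles. The library codes do not spell these names, so which primate formula each of the NIA, UW and mNIA groups ate was not settled. The mean of the 3 formula groups against chow does not depend on that assignment. The 3 comparisons of single formulas with chow share the chow libraries.

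Matricellular proteins are secreted into the matrix but serve more as signals than as scaffold. They bind integrins and other receptors, growth factors and structural fibres, and in the adult heart many of them are made at low levels until injury or pressure load. Ctgf and Cyr61 are textbook targets of the co-activator YAP and its DNA-binding partners, the TEAD factors. Fibronectin forms the early provisional matrix of a wound, while fibrillin microfibrils and elastin together form the elastic fibres of vessel walls, valves and endocardium.

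RefSeq promoter entries on build GRCm38.p6 matched 5 of the 9 members, Postn, Cyr61, Tnc, Sparc and Fbn1. They are shown as a description of these genes. Ctgf, Thbs1, Fn1 and Eln had no entry, so Cyr61 could not be set beside Ctgf, nor Fbn1 beside Eln. Each run holds the 250 bases before a start site, read 5′ to 3′ on the gene's own strand, and capitals mark the motif matches described next. The windows are chr3:145649986-145650235 on the minus strand for Cyr61, chr11:55420081-55420330 on the minus strand for Sparc, chr3:54360857-54361106 on the plus strand for Postn, chr4:64047016-64047265 on the minus strand for Tnc and chr2:125506439-125506688 on the minus strand for Fbn1. Postn and Tnc have 2 entries each, and the entry whose start matches the deposited gene position is shown.
Cyr61 promoter: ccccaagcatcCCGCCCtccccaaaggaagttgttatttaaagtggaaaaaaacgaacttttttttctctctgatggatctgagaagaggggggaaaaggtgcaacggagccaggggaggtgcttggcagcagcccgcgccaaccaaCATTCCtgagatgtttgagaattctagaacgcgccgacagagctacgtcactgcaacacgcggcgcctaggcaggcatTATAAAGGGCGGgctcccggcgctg
Sparc promoter: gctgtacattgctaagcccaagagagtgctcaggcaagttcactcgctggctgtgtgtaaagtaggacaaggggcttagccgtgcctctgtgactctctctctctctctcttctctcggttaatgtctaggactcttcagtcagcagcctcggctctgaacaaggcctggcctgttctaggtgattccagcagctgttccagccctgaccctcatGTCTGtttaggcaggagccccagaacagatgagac
Postn promoter: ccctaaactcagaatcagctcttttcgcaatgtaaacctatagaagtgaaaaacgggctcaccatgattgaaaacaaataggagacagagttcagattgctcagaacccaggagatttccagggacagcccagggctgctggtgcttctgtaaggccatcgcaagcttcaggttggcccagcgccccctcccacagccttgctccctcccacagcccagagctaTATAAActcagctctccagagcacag
Tnc promoter: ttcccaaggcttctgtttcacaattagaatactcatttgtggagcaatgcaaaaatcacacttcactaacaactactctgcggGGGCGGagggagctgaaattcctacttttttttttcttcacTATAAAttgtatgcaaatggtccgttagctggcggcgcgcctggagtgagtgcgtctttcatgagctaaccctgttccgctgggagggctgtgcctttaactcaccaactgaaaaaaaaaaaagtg
Fbn1 promoter: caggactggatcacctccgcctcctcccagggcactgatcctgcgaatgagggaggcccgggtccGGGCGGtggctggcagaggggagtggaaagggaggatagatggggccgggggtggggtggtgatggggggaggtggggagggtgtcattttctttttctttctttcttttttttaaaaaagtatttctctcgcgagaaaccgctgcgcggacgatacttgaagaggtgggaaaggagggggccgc
The letters searched, on both strands, were GGAATG for TEAD, TGANTCA for AP-1, CAGAC for SMAD, GGGCGG for Sp1 and TATAAA for the TATA box, and the CArG box of serum response factor was searched by its usual pattern. Over all 32851 RefSeq mouse promoters of this length, the shares holding a match were 12.6% for TEAD, 6.75% for AP-1, 42.2% for SMAD, 32.7% for Sp1, 12.4% for TATAAA and 1.47% for the CArG box. Cyr61 held the only TEAD match among the printed windows, on the opposite strand 103 bases before its start. Its TATAAA match began 25 bases before the start and ran directly into a Sp1 match 19 bases before it, and another Sp1 match lay 239 bases before it. Postn held a TATAAA match 26 bases before its start, and Tnc held TATAAA 126 bases and a Sp1 match 167 bases before its start. Sparc held a SMAD match 35 bases before its start, and Fbn1 held a Sp1 match 185 bases before its start. These matches describe letters and show no binding.

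Library totals ran from 2278223 to 6583503 counts, apart from NIA replicate 2 with 63005361 counts. NIA replicate 4 was the shallowest, and across genes its ratio to the other libraries was lower for longer transcripts (Spearman's rho -0.49), the strongest such relation among the 16. UW replicate 4 had a relation of the other sign (rho 0.475). The NIA libraries ran from -0.491 to 0.129 and the UW libraries from 0.001 to 0.475. Chow replicate 3, UW replicate 1 and mNIA replicate 2 stood apart within their diets: each of 10 endothelial markers was highest there, with summed levels of 3910, 3160 and 3630 CPM (counts rescaled to a common library total) against 1700 to 2130 in the other animals of these diets. In UW replicate 1 all 10 fibroblast markers were also highest of its diet and all 8 ventricular myocyte markers lowest. Ventricular myocyte markers summed to between 46900 and 106000 CPM and 3 adipocyte markers to at most 0.67 CPM in every library. Levels below are CPM scaled by TMM, edgeR's correction for differences in library composition.

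Per kilobase of transcript, Sparc was the most abundant member, at 200 CPM per kb on average over the 16 libraries, with a range of 139 to 311. The CCN genes followed, Cyr61 at 29.2 (21.1 to 45.2) and Ctgf at 23.0 (13.1 to 59.4), and then Postn at 13.8 (9.85 to 18.6). Eln averaged 7.43, Fn1 6.87 and Fbn1 6.72 CPM per kb, and their ranges overlapped almost wholly. Thbs1 averaged 2.88 CPM per kb (0.73 to 5.05), and Tnc 0.352 (0.0794 to 0.691). Neighbours in this order overlapped between libraries except at its ends: every Sparc value lay above every Cyr61 value, and every Tnc value below every Thbs1 value. In unscaled terms Tnc rested on 2 to 33 counts per library, apart from 124 in the deepest, so its values carry a wide counting error. In mNIA replicate 1, for instance, 2 counts gave 0.564 CPM with an exact Poisson 95% interval of 0.0684 to 2.04 CPM, which covers counting error only.

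**Figure D1:**
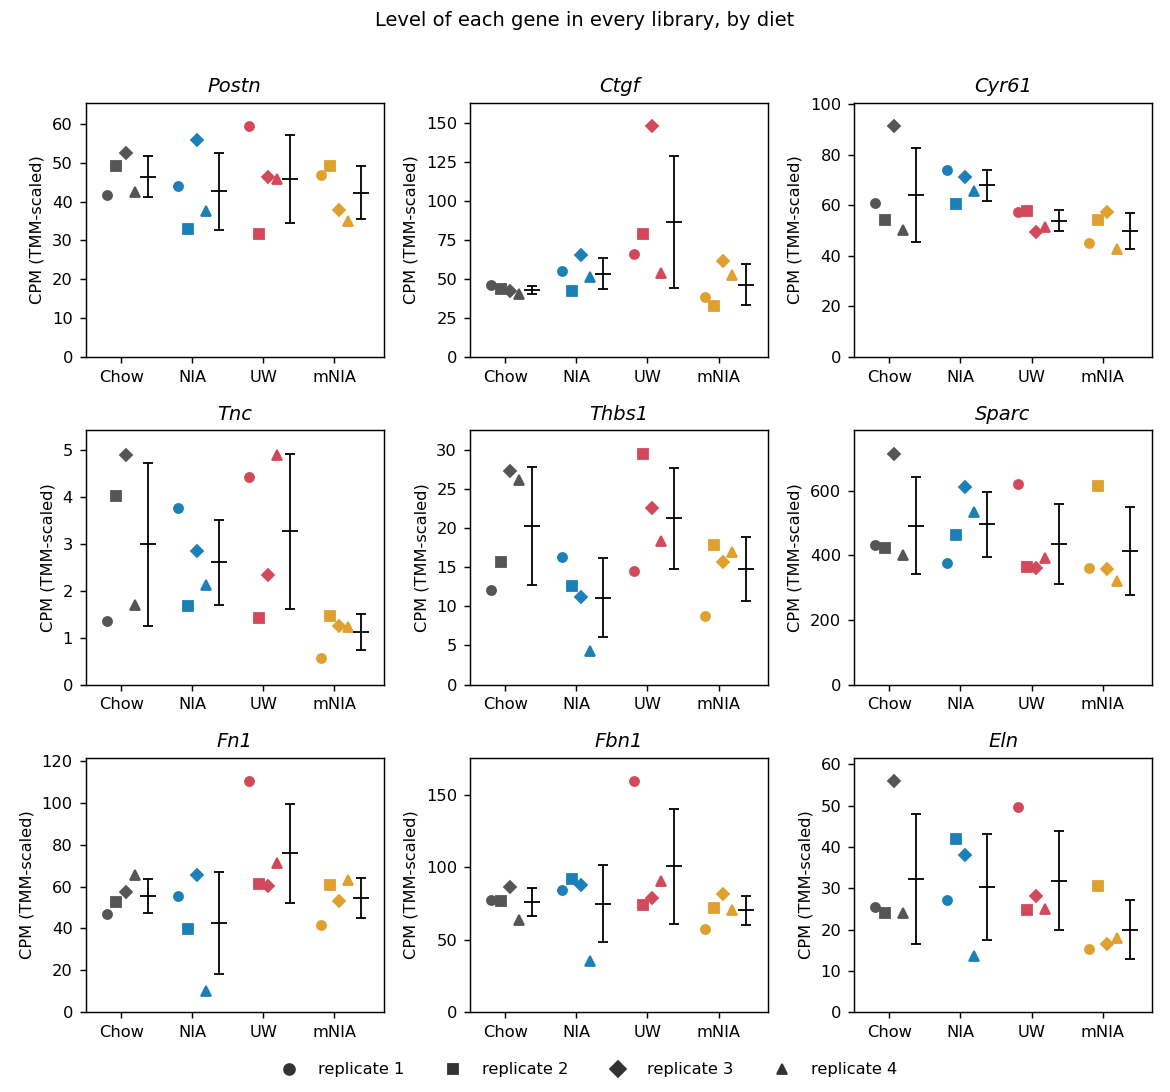
Levels of the 9 genes in TMM-scaled CPM (vertical axes, from 0) for every library, by diet; symbols mark replicate numbers, and the horizontal bar with whiskers is the mean ± SD of 4 animals. Ctgf is at 53.6 CPM or more in all 4 UW libraries and at 46.3 CPM or less in all 4 chow libraries. Of all tested genes, 1.97% are likewise higher in all 4 UW libraries. Single high or low libraries set much of the spread of Sparc, Fn1, Fbn1 and Eln.

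The members differed in how much of their variation lay between diets. Of the variance of log2 CPM, 50.7% lay between diets for Ctgf, 44.5% for Tnc, 43.4% for Cyr61, 38.3% for Thbs1 and 30.8% for Fn1. The share was 22.6% for Eln, 19.6% for Fbn1, 12.3% for Sparc and 5.91% for Postn, and its median over all tested genes was 19.2%. Means of small groups differ by chance, so a share of this kind arises without any diet effect and alone shows none. In edgeR's joint test for any diet difference, with all 16 libraries, the smallest adjusted p of a member was 0.454. Within diets the SD of log2 CPM was largest for Fn1 (0.67) and Tnc (0.66) and smallest for Cyr61 (0.23) and Postn (0.29), with a median of 0.42 over all tested genes. Across all 16 libraries the highest level exceeded the lowest 11.1-fold for Fn1, 8.69-fold for Tnc and 6.92-fold for Thbs1, but only 1.88-fold for Postn and 2.14-fold for Cyr61.

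**Figure D2:**
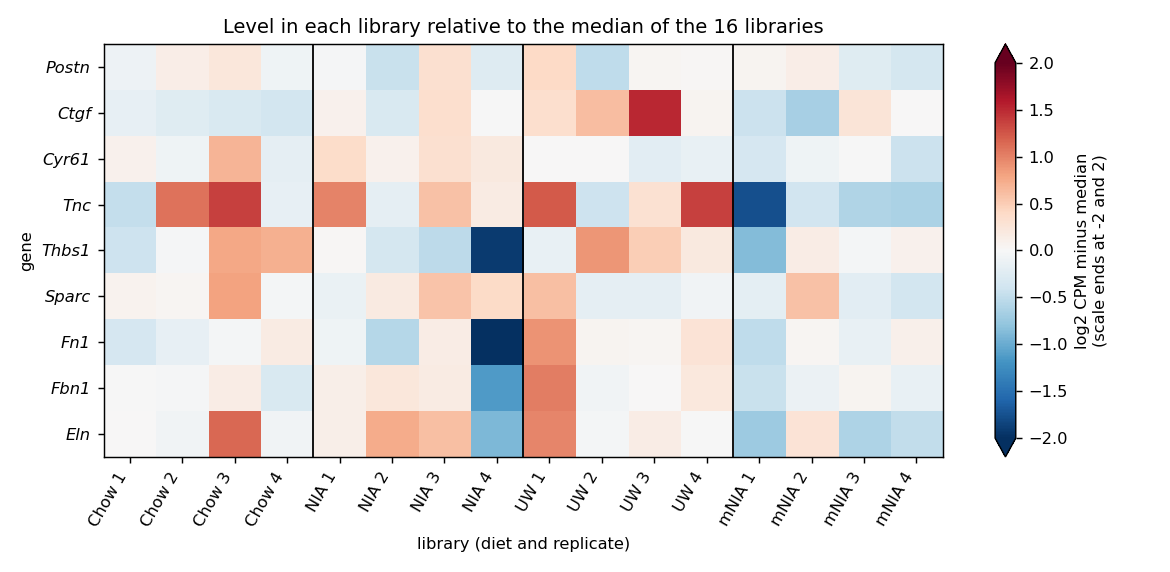
Log2 CPM of each gene (rows) in each library (columns, grouped by diet) minus that gene's median over the 16 libraries; red is above and blue below the median, and the colour scale ends at -2 and 2. NIA replicate 4 is low for Thbs1, Fn1, Fbn1 and Eln, UW replicate 1 is high for Fn1, Fbn1, Eln and Sparc, and the mNIA libraries are low for Tnc.

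The first question was whether 6 months on the primate formulas shifted this set against chow. For the mean of the 3 formulas minus chow, 0 of 9 members passed, as did 0% of all tested genes, and 0 members had an unadjusted p under 0.05 where 2.19% of all genes did (edgeR quasi-likelihood test, Benjamini-Hochberg adjustment). Of the 9 members 3 had a higher mean, as did 50.4% of all genes, and the median log2 fold change was -0.14 beside 0.00 for all genes. Ctgf had the smallest p of the set, with a log2 fold change of 0.48 ± 0.23 (SE), a 95% interval of -0.01 to 0.96 and an adjusted p of 0.938 by edgeR. Thbs1 was at -0.40 ± 0.26 and Tnc at -0.51 ± 0.37, with intervals that also included 0. For Postn the interval of the difference ran from -0.45 to 0.27 and for Sparc from -0.63 to 0.35 on the log2 scale. Differences within these bounds were not excluded. Without chow replicate 3, Thbs1 stood at -0.23 and Tnc at -0.19.

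**Figure D3:**
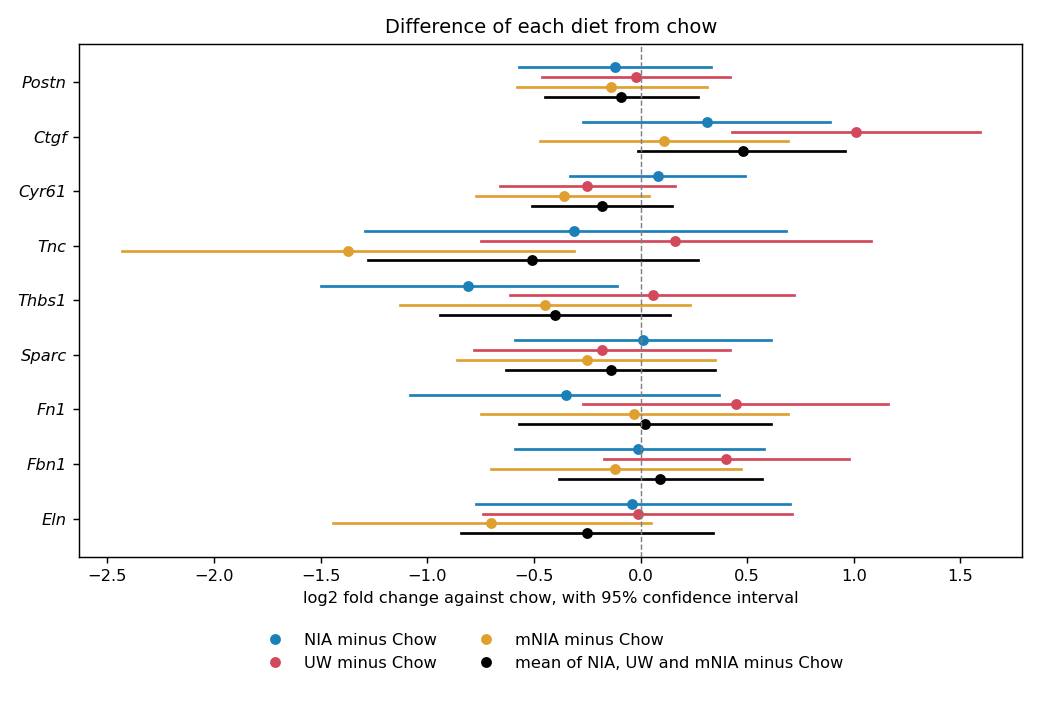
Log2 fold change of each gene against chow (horizontal axis) for NIA, UW, mNIA and the mean of the 3 formulas; points are edgeR estimates and lines their 95% confidence intervals, not adjusted for the number of genes. The interval excludes 0 for Ctgf in UW (0.43 to 1.59), Tnc in mNIA (-2.43 to -0.31) and Thbs1 in NIA (-1.50 to -0.11), and none of these passed the adjusted threshold.

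Ctgf encodes connective tissue growth factor, a CCN protein that binds integrins and growth factors and accompanies fibrosis in many organs. It lies at chr10:24595442-24598683 on mm10, plus strand, and its longest transcript has 4 exons and 2490 bases. In chow hearts Ctgf stood at 46.3, 43.7, 42.0 and 40.0 CPM. In UW hearts it stood at 65.7, 79.0, 148 and 53.6 CPM, so that every UW animal was above every chow animal. Of all tested genes, 1.97% were likewise higher in all 4 UW libraries. NIA hearts had 54.9, 42.0, 65.6 and 51.2 CPM and mNIA hearts 38.4, 32.7, 61.7 and 52.3 CPM, both overlapping chow. The chow animals were the most alike, at 43.0 ± 2.63 CPM (SD, n = 4), and the UW animals the least, at 86.6 ± 42.2 CPM (SD, n = 4).

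Between UW and chow the log2 fold change of Ctgf was 1.01 ± 0.28 (SE), a 2.01-fold higher level with a 95% interval of 1.35 to 3.01. Its unadjusted p was 0.00182, rank 13 among 13381 genes, and its adjusted p was 0.977 by edgeR's quasi-likelihood test, so it did not pass. In that comparison 0 of 9 members and 0% of all genes passed, and 1 of 9 members and 2.35% of all genes had an unadjusted p under 0.05. Of the 9 members 5 had a higher mean in UW, beside 49.2% of all genes. Without UW replicate 3 the log2 fold change of Ctgf was 0.62. Over 26 other fits its adjusted p ranged from 0.183 to 1, and its sign was the same in all 26. The joint test for any diet difference gave Ctgf an adjusted p of 0.454 by edgeR, where 0% of all genes passed. With limma-voom and sample quality weights the joint test gave Ctgf an adjusted p of 0.0315, in a fit that called 14.8% of all genes.

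Cyr61, a second CCN protein that binds integrins on endothelial cells and fibroblasts, lies at chr3:145646971-145649986 on the minus strand, and its promoter is the one printed above with the TEAD match. Chow hearts had 60.7, 54.1, 91.3 and 50.3 CPM and NIA hearts 73.8, 60.5, 71.3 and 65.4 CPM. UW hearts had 57.2, 57.7, 49.3 and 51.4 CPM and mNIA hearts 45.2, 54.1, 57.1 and 42.6 CPM. Chow replicate 3, with the highest endothelial marker sum, had the highest Cyr61 level of the study, 1.66 times the mean of the other chow animals. All 4 UW and all 4 mNIA libraries lay below all 4 NIA libraries. Among all genes, 3.06% were lower without overlap in UW than in NIA, and 0.882% in mNIA than in NIA. The log2 fold change was -0.44 ± 0.20 for mNIA minus NIA (unadjusted p 0.0353, adjusted p 0.557 by edgeR) and -0.33 ± 0.19 for UW minus NIA (adjusted p 0.47 by edgeR). Against chow it was -0.25 ± 0.19 in UW and -0.36 ± 0.19 in mNIA, and without chow replicate 3 the mNIA value was -0.15.

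The CCN genes Ctgf and Cyr61 did not vary together. Over the 16 libraries the Pearson correlation of log2 CPM between Ctgf and Cyr61 was -0.08 (Spearman 0.12), given as a description of libraries that share diets and depth. Per kilobase of transcript, the ratio of Ctgf to Cyr61 in the UW libraries was 0.93, 1.11, 2.44 and 0.846. Only UW replicates 2 and 3 of the 16 libraries had more Ctgf than Cyr61 on this scale. Chow hearts had ratios between 0.373 and 0.654, NIA hearts between 0.563 and 0.746 and mNIA hearts between 0.489 and 0.997, so the UW libraries overlapped mNIA but neither chow nor NIA. The ratios reuse the levels in which Ctgf in UW lay above chow and Cyr61 in UW below NIA. They are therefore no separate result, and ratios of other gene pairs were not computed. UW replicate 3 had both the highest Ctgf and the lowest Cyr61 level of the UW group.

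**Figure D4:**
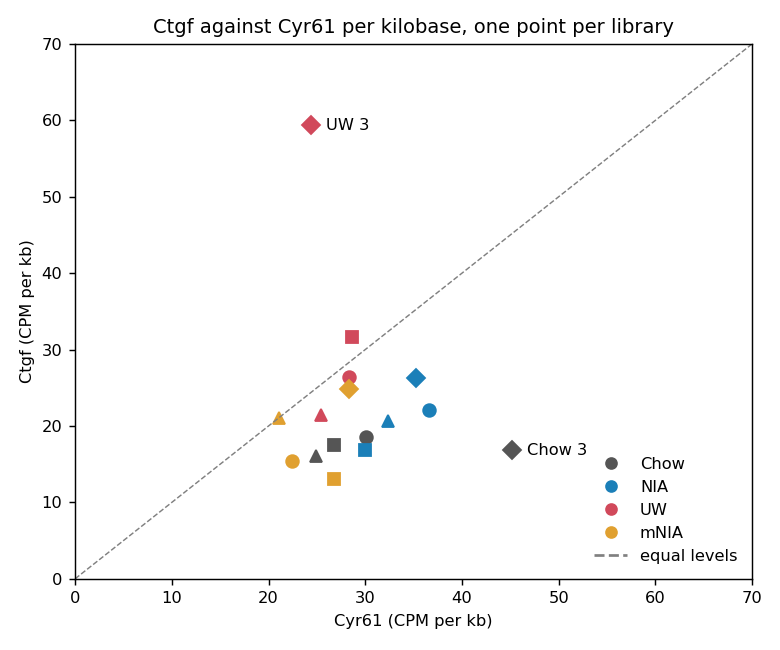
Ctgf against Cyr61 in TMM-scaled CPM per kb of transcript, 1 point per library, coloured by diet with the replicate symbols of the plot of levels; the dashed line marks equal levels. UW replicates 2 and 3 lie above the line, the latter at 59.4 CPM per kb of Ctgf, and the other 14 libraries lie on or below it.

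Tenascin C is an anti-adhesive glycoprotein made at sites of tissue remodelling. Its gene Tnc, at chr4:63959785-64047016 on the minus strand, was the least abundant member. Chow hearts had 1.37, 4.01, 4.91 and 1.69 CPM, from 7 to 25 counts. NIA hearts had 3.77, 1.68, 2.84 and 2.13 CPM, and UW hearts 4.42, 1.43, 2.34 and 4.90 CPM. The mNIA hearts had 0.564, 1.46, 1.25 and 1.22 CPM, from 2 to 8 counts. The mNIA libraries all lay below the NIA libraries, as 0.882% of all genes did, but they overlapped chow and UW. The log2 fold change was -1.06 ± 0.53 for mNIA minus NIA (adjusted p 0.575 by edgeR). For mNIA minus chow the log2 fold change was -1.37 ± 0.50 (SE), with an unadjusted p of 0.0142 and an adjusted p of 0.983 by edgeR, and for mNIA minus UW it was -1.53 ± 0.50 (unadjusted p 0.00637, adjusted p 1 by edgeR). In mNIA minus chow, 0 of 9 members and 0.00747% of all genes (Phtf1os alone) passed, and 1 of 9 members and 1.38% of all genes had an unadjusted p under 0.05. Only Ctgf had a higher mean in mNIA than in chow among the 9 members, beside 51% of all genes, and the median log2 fold change was -0.25 beside 0.01. Without chow replicate 3, mNIA minus chow stood at -1.04 for Tnc, -0.30 for Eln, -0.15 for Cyr61 and -0.02 for Sparc. In that fit 0 of 9 members had an unadjusted p under 0.05 by edgeR, beside 131 of 13479 genes.

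Thrombospondin 1 activates latent TGF-beta and binds the receptors Cd36 and Cd47. Thbs1 lies at chr2:118111876-118127134 on the plus strand. Chow hearts had 12.1, 15.7, 27.3 and 26.2 CPM and UW hearts 14.5, 29.5, 22.6 and 18.4 CPM. NIA hearts had 16.4, 12.6, 11.2 and 4.27 CPM, the lowest of them in replicate 4 from 6 counts, and mNIA hearts 8.75, 17.8, 15.6 and 16.9 CPM. The groups overlapped in every pair of diets. The log2 fold change was -0.81 ± 0.33 for NIA minus chow (unadjusted p 0.0251, adjusted p 0.492 by edgeR). It was the only member with an unadjusted p under 0.05 there, where 8.70% of all genes had one, and 0 of 9 members and 0% of all genes passed. Of the 9 members 3 had a higher mean in NIA, beside 48.6% of all genes. An offset for transcript length moved the value to -0.69 and limma-voom to -0.52.

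Sparc, a collagen-binding matricellular protein made by endothelial cells and fibroblasts, lies at chr11:55394159-55420081 on the minus strand. Chow hearts had 431, 423, 716 and 401 CPM and NIA hearts 376, 465, 613 and 536 CPM. UW hearts had 622, 365, 362 and 393 CPM and mNIA hearts 361, 615, 358 and 321 CPM. In chow, UW and mNIA, 1 animal each stood far above the other 3, and it was the animal with the highest endothelial markers (chow replicate 3, UW replicate 1 and mNIA replicate 2). Over the 16 libraries Sparc and the summed endothelial markers had a Pearson correlation of 0.97 on the log2 scale, and 0.98 after each diet's mean was removed. The same 16 libraries gave 0.71 with lymphocyte markers, 0.69 each with epicardium and erythrocyte markers and 0.57 with fibroblast markers. With ventricular myocyte markers they gave -0.56, and with smooth muscle and pericyte markers -0.58. The part of endothelial content in the Sparc levels was not tested further. With all 16 libraries, no diet difference of Sparc exceeded 0.27 on the log2 scale, and SEs were 0.23 to 0.29. These values depended on the animals with high endothelial markers. Without mNIA replicate 2, mNIA minus chow moved from -0.25 to -0.53, and without chow replicate 3 to -0.02. Without UW replicate 1, UW minus chow stood at -0.40 and UW minus NIA at -0.41.

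**Figure D5:**
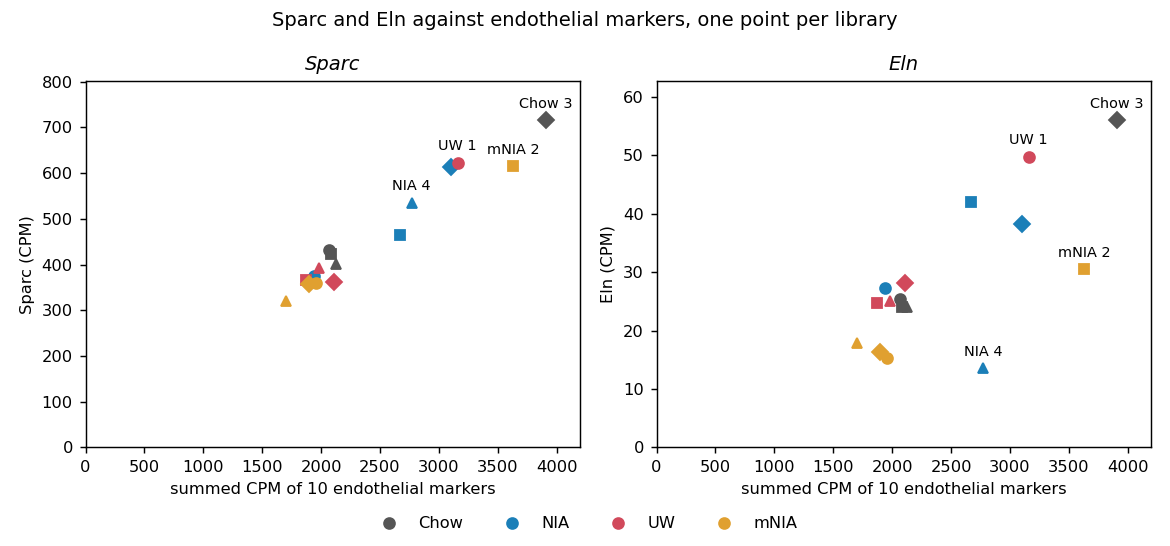
Sparc (left) and Eln (right) in TMM-scaled CPM against the summed CPM of 10 endothelial markers, 1 point per library, coloured by diet with the replicate symbols of the plot of levels. Sparc follows the marker sum closely, and for Eln NIA replicate 4 lies well below the other libraries of similar marker level.

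Periostin is a matricellular protein that marks activated fibroblasts, valve interstitial cells and scar. Postn, at chr3:54361107-54391042 on the plus strand, varied little between diets. Chow hearts had 41.8, 49.3, 52.4 and 42.4 CPM and NIA hearts 44.0, 33.0, 55.9 and 37.7 CPM. UW hearts had 59.5, 31.6, 46.3 and 45.9 CPM and mNIA hearts 46.8, 49.2, 37.9 and 35.1 CPM. All 4 diets overlapped. The largest of its 6 differences between diets was -0.14 ± 0.21, for mNIA minus chow, with a 95% interval of -0.58 to 0.31 on the log2 scale. Without mNIA replicate 2 it was -0.25, and NIA minus chow moved from -0.12 to -0.29 without NIA replicate 3.

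Fibronectin (Fn1, chr1:71585473-71653235, minus strand) had the largest ratio of highest to lowest level in the set. Its SD of log2 CPM over the 16 libraries was 0.72, beside 0.80 for Tnc. Chow hearts had 46.6, 52.7, 57.5 and 65.7 CPM and mNIA hearts 41.5, 60.7, 52.9 and 63 CPM. NIA hearts had 55.4, 39.8, 65.3 and 9.96 CPM, and UW hearts 110, 61.3, 60.4 and 71.1 CPM. The extremes were NIA replicate 4, with 14 counts and 0.186 times the mean of the other NIA animals, and UW replicate 1, at 1.72 times the mean of the other UW animals. UW minus NIA was 0.80 ± 0.35 on the log2 scale (unadjusted p 0.0323, adjusted p 0.304 by edgeR). Without NIA replicate 4 it was 0.54, and with an offset for transcript length 0.55. UW minus chow was 0.45 ± 0.34 (adjusted p 0.977 by edgeR), and 0.21 without UW replicate 1.

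Fibrillin 1 (Fbn1, chr2:125300594-125506439, minus strand), the main protein of adult microfibrils, had 77.3, 76.9, 86.6 and 63.5 CPM in chow and 84.3, 91.6, 87.9 and 35.6 CPM in NIA. UW hearts had 159, 74.2, 78.9 and 90.1 CPM and mNIA hearts 57.3, 71.7, 81.5 and 70.2 CPM. The highest and the lowest value again came from UW replicate 1 and NIA replicate 4, and the other 14 libraries lay between 57.3 and 91.6 CPM. UW minus chow was 0.40 ± 0.28 on the log2 scale (adjusted p 0.977 by edgeR), and 0.09 without UW replicate 1.

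Elastin (Eln, chr5:134702595-134747324, minus strand) had 25.4, 24.1, 55.9 and 24.0 CPM in chow and 27.3, 42.1, 38.2 and 13.5 CPM in NIA. UW hearts had 49.7, 24.7, 28.0 and 25.1 CPM. The mNIA hearts had 15.2, 30.5, 16.4 and 17.9 CPM, the lowest mean of the diets at 20.0 ± 7.07 CPM (SD, n = 4). The log2 fold change was -0.70 ± 0.35 for mNIA minus chow (unadjusted p 0.0651, adjusted p 0.983 by edgeR) and ranged from -0.98 to -0.30 when each library was left out, the latter without chow replicate 3. For mNIA minus NIA it was -0.66 ± 0.36 (adjusted p 0.603 by edgeR).

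The Eln comparison of mNIA with NIA depended on which libraries entered. Quality weights were estimated by limma-voom from these same counts and are low where a library lies far from its diet's mean. They are no separate measure of RNA or sequencing quality. Leaving out libraries with weights under 0.5 narrows the spread within diets by design, so calls in that fit are no separate support. Without 4 libraries of low quality weight (chow replicate 3, NIA replicates 1 and 4, mNIA replicate 2), mNIA hearts had 15.2, 16.4 and 17.9 CPM against 42.1 and 38.2 CPM in the 2 NIA hearts kept. That fit gave Eln -1.29 with an adjusted p of 0.00305 by edgeR, together with Sparc (-0.64, adjusted p 0.0438) and Cyr61 (-0.45, adjusted p 0.0481), and it called 23.1% of all genes. Without the same libraries Eln in NIA minus chow moved from -0.04 to 0.70, which did not pass. Limma-voom with sample quality weights, on all 16 libraries, gave Eln -1.13 with an adjusted p of 0.0157 and called 14.8% of all genes. In the joint test Eln had an adjusted p of 0.0181 without those 4 libraries, where 9.97% of all genes passed, and 0.0144 with limma-voom, where 14.8% did. The adjusted p of Eln for mNIA minus NIA ranged from 0.00305 to 0.991 over 26 other fits, and it was lower in mNIA in all 26. Ventricular myocyte markers summed to 46900 and 74300 CPM in the 2 NIA hearts kept and to between 80200 and 96700 CPM in the 3 mNIA hearts. Over the 16 libraries Eln and those markers had a Pearson correlation of -0.84. Endothelial markers summed to 2670 and 3100 CPM in the 2 NIA hearts kept and to 1960, 1900 and 1700 CPM in the 3 mNIA hearts. Their Pearson correlation over the 16 libraries was 0.97 with Sparc, 0.66 with Eln and 0.59 with Cyr61. Other marker sets reached similar values, such as 0.66 for Schwann cell and 0.61 for lymphocyte markers with Cyr61, and 0.70 for epicardium markers with Eln. Valve and outflow tract markers summed to 83.2 and 78.3 CPM in the 2 NIA hearts kept and to 75.9, 64.8 and 63.9 CPM in the 3 mNIA hearts. They had a Pearson correlation of 0.78 with Eln, 0.22 with Sparc and 0.19 with Cyr61. The part of these marker sets in the differences was not tested.

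Among the formula groups themselves, the comparison of UW with NIA had 3 of 9 members with an unadjusted p under 0.05 (Ctgf, Thbs1 and Fn1, all higher in UW), beside 13.9% of all genes, and 0 of 9 members and 0% of all genes passed (edgeR). Without NIA replicate 2 that number was 1 of 9, beside 2174 of 13464 genes. With an offset for transcript length it was 2 of 9, beside 1175 of 13381 genes (1858 without the offset). Of the 9 members 7 had the higher mean in UW, as did 49.7% of all genes, with a median log2 fold change of 0.41 beside 0.00 for all genes. Ctgf stood at 0.70 ± 0.28 (adjusted p 0.266 by edgeR), and at 0.31 without UW replicate 3, and Thbs1 at 0.87 ± 0.33 (adjusted p 0.255 by edgeR). All 9 members had the lower mean in mNIA than in UW, where 54.5% of all genes had the higher mean, with a median of -0.51 beside 0.02, and 2 of 9, Ctgf (-0.90 ± 0.28, or -0.51 without UW replicate 3) and Tnc, had an unadjusted p under 0.05 where 0.986% of all genes did. Without NIA replicate 4, a library in neither of these groups, that number was 5 of 9. Beside it stood 264 of 13592 genes, against 132 of 13381 with all 16 libraries. In that comparison and in mNIA minus NIA, 0 of 9 members and 0% of all genes passed. For mNIA minus NIA, 2 of 9 members and 49.1% of all genes had the higher mean, with a median of -0.20 beside -0.01, and 1 of 9 members and 8.91% of all genes had an unadjusted p under 0.05. In the joint test 2 of 9 members and 6.88% of all genes had one.

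Several matrix genes shared their extreme libraries. In NIA replicate 4, Fn1, Thbs1, Eln and Fbn1 stood at 0.186, 0.319, 0.377 and 0.404 times the mean of the other NIA animals. In the same library Sparc, Cyr61 and Ctgf, whose transcripts are 2300, 2019 and 2490 bases long, stood at 1.11, 0.955 and 0.945 times, and Postn, at 3205 bases, at 0.851 times. The longest transcripts of Fn1, Thbs1, Eln and Fbn1 measure 8315, 5848, 3853 and 11971 bases. Tnc, at 7106 bases, stood at 0.771 times but from 3 counts. In UW replicate 1, Fbn1, Eln, Fn1 and Sparc stood at 1.96, 1.92, 1.72 and 1.67 times the mean of the other UW animals, and Thbs1 and Ctgf at 0.616 and 0.702 times, beside 2840 CPM of fibroblast markers against 1810 to 1870 CPM. Valve and outflow tract markers summed to 37.7 CPM in NIA replicate 4 against 78.3 to 93.1 CPM in the other NIA animals. In UW replicate 1 they summed to 102 CPM against 78.4 to 89.2 CPM in the other UW animals. The part of transcript length and of cell composition in these values was not tested further.

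Among the 36 pairs of members, 5 had a Pearson correlation of log2 CPM above 0.6 over the 16 libraries, which share diets and library effects. Fn1 and Fbn1 had 0.82, and 0.12 without NIA replicate 4 and UW replicate 1. Fbn1 and Eln, partners in the elastic fibre, had 0.74, and 0.63 without those libraries. Thbs1 and Fn1 had 0.74, and 0.61 without them. Sparc had 0.66 with Eln and 0.65 with Cyr61, which became 0.81 and 0.69.

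Candidates for likeness were the 10518 tested genes (10519 for Tnc) with a mean of at least 5 CPM and no clone-type name. With so many candidates and only 16 libraries, high correlations can arise by chance. The 3 genes most like each member by Pearson correlation over the 16 libraries were as follows, given without a test. For Sparc they were Gimap6 (0.95), Cfl1 (0.95) and Mest (0.94). For Ctgf they were Mt2 (0.77), Cdkn1a (0.76) and Mylip (0.75), and for Cyr61 Hdac1, Igfbp7 and Actb (each 0.80). Postn was most like Mki67 (0.82), a marker of dividing cells, then Taf8 (0.78) and Incenp (0.75). Tnc was most like Hdac1 (0.78), Mfsd12 (0.72) and Cilp (0.69), which is a matrix protein of cartilage and fibroblasts. Fn1 was most like Sntb2 (0.96), Lrp1 (0.96) and Nectin1 (0.95), and these became 0.62, 0.57 and 0.72 without NIA replicate 4 and UW replicate 1. Fbn1 was most like Plpp3 (0.94), Soga1 (0.89) and Sfrp1 (0.88), which became 0.68, 0.55 and 0.30. Eln was most like Slc11a1 (0.92), Fstl1 (0.91) and Fndc3a (0.90), and Thbs1 most like Fam160a2 (0.87), Sart3 (0.86) and Ranbp10 (0.86). Without NIA replicate 4 and UW replicate 1 these became 0.88, 0.86 and 0.84 for Eln and 0.70, 0.71 and 0.70 for Thbs1.

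Companion genes were read for context, and 0 genes of the 6 lists passed in any comparison with edgeR. Of 20 tested YAP and TEAD targets, 16 had a higher mean in UW than in chow, beside 49.2% of all genes. Their median log2 fold change was 0.23 beside -0.01 for all genes, the same sign as Ctgf and not that of Cyr61. Lats2, a kinase that restrains YAP, was at 40.6 ± 2.11 CPM in chow and 57.8 ± 5.39 CPM in UW (SD, n = 4), with a log2 fold change of 0.51 ± 0.19 (unadjusted p 0.0158, adjusted p 0.977 by edgeR). Nt5e was at 0.54 ± 0.25, and the abundant myocyte stress gene Ankrd1 at 0.46 ± 0.31. In NIA against chow, 6 of the 20 targets had a higher mean, beside 48.6% of all genes, with a median of -0.12. Of 20 immediate early genes, 16 had a higher mean in UW than in chow (median 0.26), beside 49.2% of all genes. In mNIA 6 did (median -0.06), beside 51% of all genes. There Egr1 was at -1.55 ± 0.58 and Fosb at -2.38 ± 0.93 (adjusted p 0.983 each by edgeR). In chow they varied widely, at 76.4 ± 72.3 and 4.89 ± 5.55 CPM (SD, n = 4), and Fosb had a library without counts. The summed immediate early genes stood at 1160 CPM in chow replicate 3 and at 531 to 584 CPM in the other chow animals.

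Of 18 elastic fibre and microfibril genes, 2 had a higher mean in mNIA than in chow, beside 51% of all genes. Their median log2 fold change was -0.27 beside 0.01 for all genes. Efemp2, which guides elastin assembly, was at 11.5 ± 4.12 CPM in chow and 6.92 ± 2.35 CPM in mNIA (SD, n = 4), at -0.73 ± 0.30 (unadjusted p 0.0243, adjusted p 0.983 by edgeR), close to the Eln value of -0.70. Ltbp4, a binding protein for latent TGF-beta and fibrillin, was at -0.36 ± 0.35 in mNIA and -0.73 ± 0.35 in NIA. Of 13 receptors of the members, 3 had a higher mean in NIA than in chow (median -0.28), beside 48.6% of all genes. In UW 9 did (median 0.21), beside 49.2% of all genes. Among them Cd36, the fatty acid transporter that also binds Thbs1, was at 0.46 ± 0.29 in UW, and Itgb3, a subunit of the vitronectin receptor, at -1.21 ± 0.48 in NIA (unadjusted p 0.0227, adjusted p 0.487 by edgeR). Itgb3 was low, at 7.32 ± 4.46 CPM in chow and 2.34 ± 2.12 CPM in NIA (SD, n = 4), and had a library without counts. Of 16 other matricellular genes, 5 had a higher mean in the 3 formulas than in chow (median -0.07), beside 50.4% of all genes. Mgp was at -0.12 ± 0.23, Sparcl1 at -0.12 ± 0.20 and Tnxb at -0.47 ± 0.35. Of 19 TGF-beta response and myofibroblast genes, 5 had a higher mean in the formulas (median -0.13), beside the same 50.4% of all genes. Acta2 was at -0.01 ± 0.21, Col3a1 at -0.06 ± 0.21 and Skil at 0.29 ± 0.16.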

How the data were processed

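Per the labels' protocols, poly-A selected, strand-specific libraries (Kapa mRNA HyperPrep) from RNA with an integrity number above 7.0 were read on a NextSeq as single reads of 75 bases. Values in the deposited table are the authors' expected counts, on build mm10. BWA and DESeq2 are named in the submitters' processing notes with no version. The counting tool, gene models and strand setting are not given in the sources used here.

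Expected counts were rounded. edgeR 4.0.16 (R 4.3.3) kept genes by filterByExpr (75.4%), scaled by TMM and fitted 1 mean per diet over all 16 libraries, with Benjamini-Hochberg adjustment over all 13381 genes and a threshold of 0.05. Each library is a separate animal. SEs and 95% intervals come from the quasi-likelihood fit. Correlations used log2 CPM with a prior count of 2. Transcript lengths came from GENCODE vM21 on mm10. No stretch of 75 bases of the members' longest transcripts was shared with another gene. Ctgf, Tnc, Thbs1, Fn1, Fbn1 and Eln overlap genes on the other strand that the table does not list. The labels do not say that replicate numbers pair the animals. Alternatives were RLE and upper-quartile scaling, 2 other filters, the replicate block, a transcript length offset, limma-voom (limma 3.58.1), DESeq2 1.42.0, the 2 diets alone, and fits without 1 or 4 libraries. The edgeR fit was tested for UW minus chow on simulated counts, with 1 spread shared by all genes and no outlying libraries. The other kinds of fit and the correlations were not tested in this way. Named genes were the 9 members, from each companion list the 2 most abundant per kb and the 2 of smallest p for the 3 formulas against chow, and the 3 genes most like each member. The members, lists and alternatives were chosen with earlier results of these data known.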

Additional observations from a re-analysis of the deposited data

Results flagged for a closer look

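Among 36 groups of 4 animals (9 genes in 4 diets), 6 held a value set apart from the other 3 by a gap that chance alone would give in about 1 of 20 groups. Sparc was high in chow replicate 3 (716 CPM against 401 to 431), UW replicate 1 (622 CPM against 362 to 393) and mNIA replicate 2 (615 CPM against 321 to 361). Eln was high in chow replicate 3 (55.9 CPM against 24.0 to 25.4) and UW replicate 1 (49.7 CPM against 24.7 to 28.0). These are the libraries in which all 10 endothelial markers were highest of their diet. Fbn1 was low in NIA replicate 4 (35.6 CPM against 84.3 to 91.6), the shallowest library. The causes were not tested.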

How the results depend on the processing

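Among the members, 0 passed in the 7 contrasts and the joint test under RLE or upper-quartile scaling, either other filter, the replicate block, the length offset, DESeq2, the 2 diets alone or the loss of any 1 library. With limma-voom, 1 member passed in mNIA minus NIA (Eln) and 2 in the joint test (Ctgf and Eln). Without the 4 libraries of low quality weight, 3 passed in mNIA minus NIA (Cyr61, Sparc and Eln) and 1 in the joint test (Eln). The cause was not tested.

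Counts over all genes moved more. With limma-voom they were 4 for the 3 formulas minus chow, 28 for NIA minus chow, 1 for UW minus chow, 916 for UW minus NIA, 1979 for mNIA minus NIA, 1 for mNIA minus UW and 1980 in the joint test. With DESeq2 they were 127 for NIA minus chow, 1 for UW minus chow, 375 for UW minus NIA, 3 for mNIA minus NIA, 1 for mNIA minus UW and 174 in the joint test. Without the 4 libraries they were 224 for NIA minus chow, 1 for UW minus chow, 1627 for UW minus NIA, 3184 for mNIA minus NIA and 1374 in the joint test. For mNIA minus chow the single call was 0 under upper-quartile scaling, the replicate block, the length offset, DESeq2, without the 4 libraries and with the 2 diets alone. Leaving out 1 library gave 0 to 116 for NIA minus chow, 0 to 1 for mNIA minus chow, 0 to 217 for UW minus NIA, 0 to 1 for mNIA minus UW and 0 to 110 in the joint test. The counts of 116, 217 and 110 came without NIA replicate 2, and that of 1 for mNIA minus UW without UW replicate 3.

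For the 3 formulas minus chow, small log2 fold changes changed sign: Cyr61 to 0.00 with limma-voom, Sparc to 0.04 without the 4 libraries, Fn1 to -0.02 with upper-quartile scaling and to 0.00 with the length offset, and Eln to 0.08 with limma-voom and 0.17 without the 4 libraries. With the replicate block Fn1 moved to 0.00, and no member call changed. Same-numbered libraries had correlations of -0.58 to 0.61, and 4 of 16 correlated best with their own number. Without 1 library the values ran from -0.28 to 0.04 for Cyr61, -0.23 to 0.10 for Sparc, -0.07 to 0.12 for Fn1, -0.01 to 0.17 for Fbn1 and -0.37 to 0.15 for Eln. Low counts limit Tnc, and depth limits NIA replicate 4.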
